A study of Mus musculus with 13 samples.

Results

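Cluster 1 is one of the 5 main groups into which the study sorted adult proprioceptive sensory neurons, and the one it assigned to the group Ia afferents of the muscle spindle. Its members were taken from the deposited cell annotation as every adult neuron given cluster number 1, which gave 51 neurons of the 166 in the 5 main clusters, of 208 adult neurons that the annotation keeps and of 586 kept neurons of all stages. The neurons were single tdTomato+ cells sorted from dorsal root ganglia of mice carrying PV:Cre+/-;Rx3:Flp+/-;Ai65+/- at an age of at least postnatal day 56, and P12 mice of the same genotype supply the comparison at a younger stage. The label needs recombination by both drivers, so it marks neurons that have expressed both Pvalb and Runx3, and ganglia of all segmental levels were pooled. Each of 5 adult plates of 96 wells is 1 sample, and the plates gave 15, 12, 11, 10 and 3 cluster 1 neurons as replicates 1 to 5. The adult neurons came from 3 experiments and 6 mice of either sex, and the sources do not tie a plate to an experiment or a mouse. So some of the 5 plates share an experiment, and every error below is the spread between plates, which may be technical and is not that of 5 independent experiments. Replicates 1 and 2 stood apart from replicates 3 to 5 in some genes, among them Maf (386 and 448 against 189 to 211 CPM in cluster 1) and Spp1 (1706 and 1688 against 2877 to 3218 CPM), chosen after their values were seen; differences between cells below were taken within plates.

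Proprioceptive neurons have their cell bodies in the dorsal root ganglia and report muscle length and force. A group Ia afferent winds around the centre of the intrafusal fibres of a muscle spindle, fires at high rate when the muscle is stretched, conducts along a thick myelinated axon and makes direct excitatory contacts onto motor neurons. Group II afferents also end in spindles, and group Ib afferents end in Golgi tendon organs. Fast potassium channels, calcium buffers and neurofilaments are characteristic of such large, rapidly firing cells.

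Values are counts of unique molecular identifiers (UMIs), one for each captured mRNA molecule, and CPM is the UMI count of a gene scaled to the same usual total in every neuron. Since one molecule gives one 3′ tag whatever its length, levels of different genes can be set side by side. A level for a plate is the mean of the CPM of its neurons. Cluster 1 neurons held 21844 to 128341 UMIs with a median of 59922, against a median of 32978 in the 115 neurons of clusters 2 to 5, and 5368 to 10223 genes. The same 96 well barcodes served every plate, and the 51 neurons used 41 of them, 10 shared by cluster 1 neurons of 2 plates. The clusters were found from these same counts, so every comparison of cluster 1 with the other clusters below is a description without a test, and tests are given only in cells that did not define the cluster or between cluster 1 neurons.

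The label was first set against its 4 markers. Calb2 encodes the calcium-binding protein calretinin, Agpat4 an acyltransferase of phospholipid synthesis, Cpne4 a calcium-dependent membrane-binding copine, and Slc17a6 the vesicular glutamate transporter VGLUT2. Mean Calb2 levels on the 5 plates were 141, 153, 171, 170 and 437 CPM in cluster 1 and 2.40 to 4.18 CPM in the other neurons of the same plates, so the plates did not overlap. Mean levels in cluster 1 were 35.5 ± 12.3 CPM for Agpat4, 59.7 ± 14.04 CPM for Cpne4 and 74.1 ± 30.4 CPM for Slc17a6 (SD, n = 5 plates), against 2.27, 10.7 and 11.5 CPM in the other neurons. All 4 were higher in cluster 1 on all 5 plates. The clusters were found from these same counts, so these levels describe the cluster and are no test of its label. In GRCm38 Calb2 lies on chromosome 8 at 110142526 to 110168212, Agpat4 on chromosome 17 at 12118485 to 12219649, Cpne4 on chromosome 9 at 104566701 to 105034544 and Slc17a6 on chromosome 7 at 51621830 to 51671126.

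Single neurons were less uniform. A Calb2 UMI was found in 32 of the 51 neurons (62.7%), an Agpat4 UMI in 38, a Cpne4 UMI in 46 and a Slc17a6 UMI in 47. In 24 neurons all 4 markers were present, in 17 there were 3, in 7 there were 2, in 2 there was 1, and in 1 neuron none was found. In clusters 2 to 5, 55 of 115 neurons had none and 0 had all 4. When each neuron was thinned to 7000 UMIs, to remove the difference in depth, Calb2 was found in 37.3% of cluster 1 neurons against 0.870% of the others, Slc17a6 in 43.1% against 7.83%, Cpne4 in 35.3% against 7.83% and Agpat4 in 19.6% against 1.74%. Of the further cluster 1 markers, Calb1, another calcium buffer, was at 110 ± 21.8 CPM against 14.3 CPM, Hpse, the heparan sulphate-cleaving heparanase, at 20.8 ± 6.21 CPM against 1.09 CPM, and Colq, the collagen tail of acetylcholinesterase, at 14.47 ± 7.87 CPM against 1.62 CPM.

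**Figure D1:**
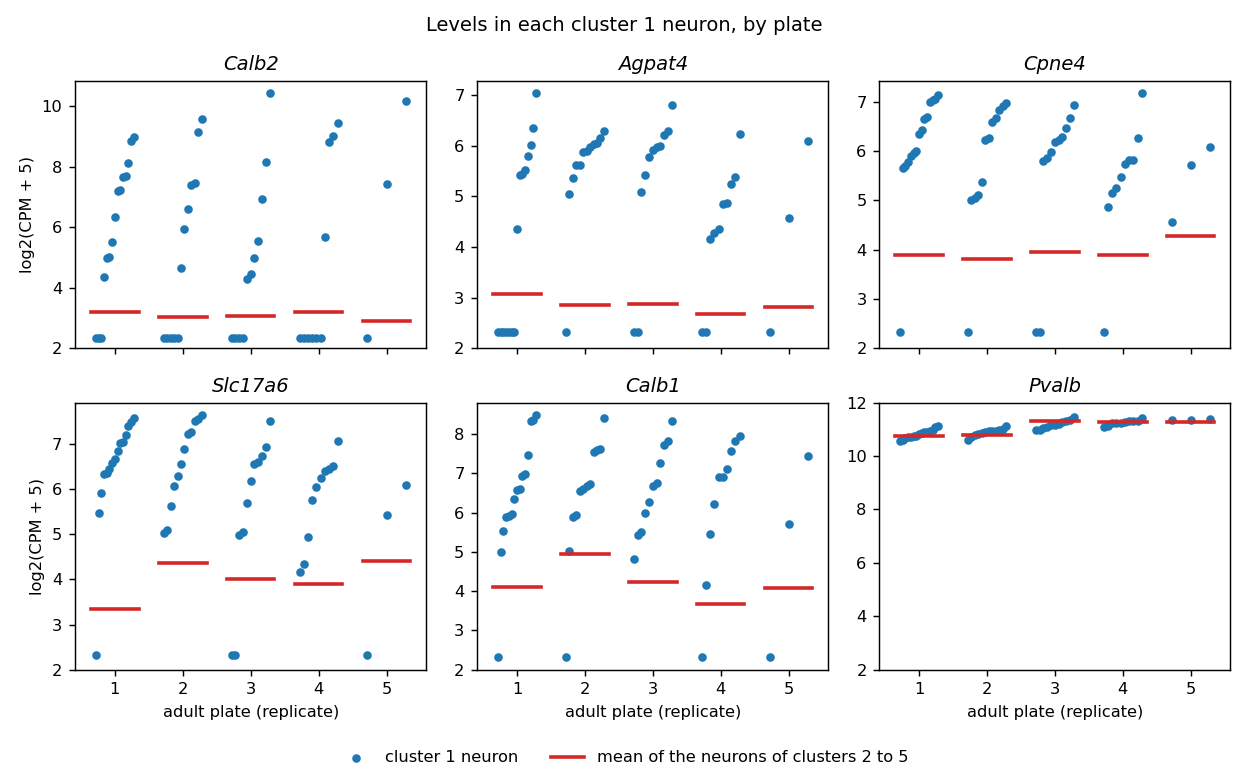
Level of 6 genes in each of the 51 cluster 1 neurons, as log2(CPM + 5), by adult plate (replicates 1 to 5; each blue point is 1 neuron, sorted within its plate). Red bars are the mean of the neurons of clusters 2 to 5 on the same plate. Calb2 ranged from 0 to 1377 CPM within the cluster, and Pvalb stayed between 1522 and 2834 CPM.

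The 3 promoter windows available for the 4 markers are shown because these genes separate cluster 1 from the other neurons together. Each is the 250 bases before an annotated start in RefSeq (GRCm38.p6), 5′ to 3′, and all 3 lie on the plus strand. The Agpat4 window is chr17:12119034-12119283, the Cpne4 window chr9:104569405-104569654 and the Slc17a6 window chr7:51621580-51621829. The annotated intervals of Agpat4 and Cpne4 begin further upstream than these windows. Calb2 has no window here. Capitals mark a match to the RUNX core TGTGGT, the ETS core CGGAAG or the MAF half-site TGCTGAC on either strand, the motifs of the families of Runx3, Etv1 and Maf.
Agpat4: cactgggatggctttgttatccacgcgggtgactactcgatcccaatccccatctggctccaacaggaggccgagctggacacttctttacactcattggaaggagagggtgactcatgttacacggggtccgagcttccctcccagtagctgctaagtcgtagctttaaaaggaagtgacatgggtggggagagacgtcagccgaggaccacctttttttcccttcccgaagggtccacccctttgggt
Cpne4: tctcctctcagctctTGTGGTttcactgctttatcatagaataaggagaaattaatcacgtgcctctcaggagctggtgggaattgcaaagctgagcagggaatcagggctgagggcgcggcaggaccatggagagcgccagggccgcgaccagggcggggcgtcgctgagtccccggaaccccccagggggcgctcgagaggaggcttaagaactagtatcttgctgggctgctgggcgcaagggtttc
Slc17a6: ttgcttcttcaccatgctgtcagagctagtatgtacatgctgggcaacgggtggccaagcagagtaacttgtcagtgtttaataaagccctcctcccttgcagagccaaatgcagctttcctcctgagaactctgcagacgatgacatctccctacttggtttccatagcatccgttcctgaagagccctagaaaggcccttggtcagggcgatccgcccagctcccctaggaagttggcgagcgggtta
One match was found, a RUNX core 235 bases before the Cpne4 start, and the other 2 windows held none of the 3 motifs. A RUNX core lay in 10.1% of the 4268 windows of genes compared in the neurons and in 14.2% of all 27025 windows. Among the genes higher in cluster 1 (below), 4 of 34 windows (11.8%) held the RUNX core, 3 (8.82%) the ETS core and 3 (8.82%) the MAF half-site. The ETS core lay in 28.0% of the windows of genes compared and in 13.8% of all windows, and the MAF half-site in 2.60% and 3.72%. Among 63 windows of genes lower in cluster 1 the shares were 7.94%, 12.7% and 4.76%. These shares are descriptions and rest on few windows.

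Cluster 1 neurons shared a large common transcriptome. Of 50508 listed genes, 20021 had a UMI in at least 1 cluster 1 neuron, 7286 in the majority of them and 1651 in all 51. These 1651 genes carried 72.1% ± 1.20 of the UMIs (SD, n = 5 plates). The 10 genes of highest level took 8.35% ± 0.404 and the 100 highest 27.4% ± 0.692. Mitochondrial genes took 2.78% ± 0.248 and the 85 genes of cytosolic ribosomal proteins 1.38% ± 0.0956.

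Genes of several kinds stood at the highest levels. Calm2, a gene of the calcium sensor calmodulin, stood at 9693 ± 808 CPM. Map1b, a microtubule-binding protein of axons, stood at 9684 ± 1937 CPM, and the neurofilament subunits Nefm, Nefl and Nefh at 8143 ± 1419, 7181 ± 1112 and 6317 ± 941 CPM. The nuclear RNA Malat1 was at 9811 ± 2404 CPM and the mitochondrial mt-Cytb at 11245 ± 1901 CPM. These SDs overlap, so the order of mt-Cytb, Malat1, Calm2 and Map1b is not resolved by 5 plates. Lower in the order were Rn18s-rs5, a ribosomal RNA-related sequence, at 5933 ± 1954 CPM, Fth1, the ferritin heavy chain, at 4486 ± 1027 CPM and Ndufa4, a mitochondrial respiratory protein, at 3911 ± 567 CPM. S100b, a calcium-binding protein often used as a glial marker but long known in large sensory neurons, was at 3835 ± 313 CPM in all 51 neurons.

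Markers of other cells were low. The 8 genes fixed for nociceptors and cutaneous neurons summed to 4.01 to 46.2 CPM per plate, with P2rx3, Th and Scn10a at 0 in all 51 neurons, and the 7 genes for blood, vessel, fibroblast and immune cells summed to 6.37 to 59.2 CPM, with Cldn5, Ptprc and Cd74 at 0. The 8 genes of satellite glia and Schwann cells summed to 174 to 718 CPM in cluster 1 and to 283 to 931 CPM in the other neurons. Apoe made up most of this, at 368 ± 178 CPM with a UMI in every neuron, while Mbp was found in 6 neurons.

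Differences from the other neurons were taken within each plate, as log2(CPM + 5) of summed cluster 1 UMIs minus that of clusters 2 to 5, over 5702 genes with a mean of at least 1 UMI per neuron. The pseudocount of 5 CPM pulls the differences of low genes towards 0. A gene was counted where all 5 plates had one sign and the mean difference was at least 1 in size. By this rule 45 genes (0.789%) were higher and 84 (1.47%) lower, and the median over all genes was 0.01. With each neuron thinned to 7000 UMIs, 82 were higher and 158 lower, 22 of them among the 45 and 53 among the 84. The strongest after Calb2 (mean difference 4.86 ± 0.62, SD over 5 plates) were Calb1 at 2.59, Tspan33, a tetraspanin, at 2.29 ± 0.57, Cryba2, a crystallin, at 2.27 ± 0.63, Slc17a6 at 2.24 and Maf at 1.96. The strongest lower genes were Resp18, a protein of the secretory pathway, at −3.39 ± 0.63, Cbln2, a secreted synaptic organiser, at −3.38 ± 0.97, the intermediate filament Ina at −3.29 ± 1.03 and the actin-binding thymosin Tmsb10 at −3.21 ± 0.67.

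**Figure D2:**
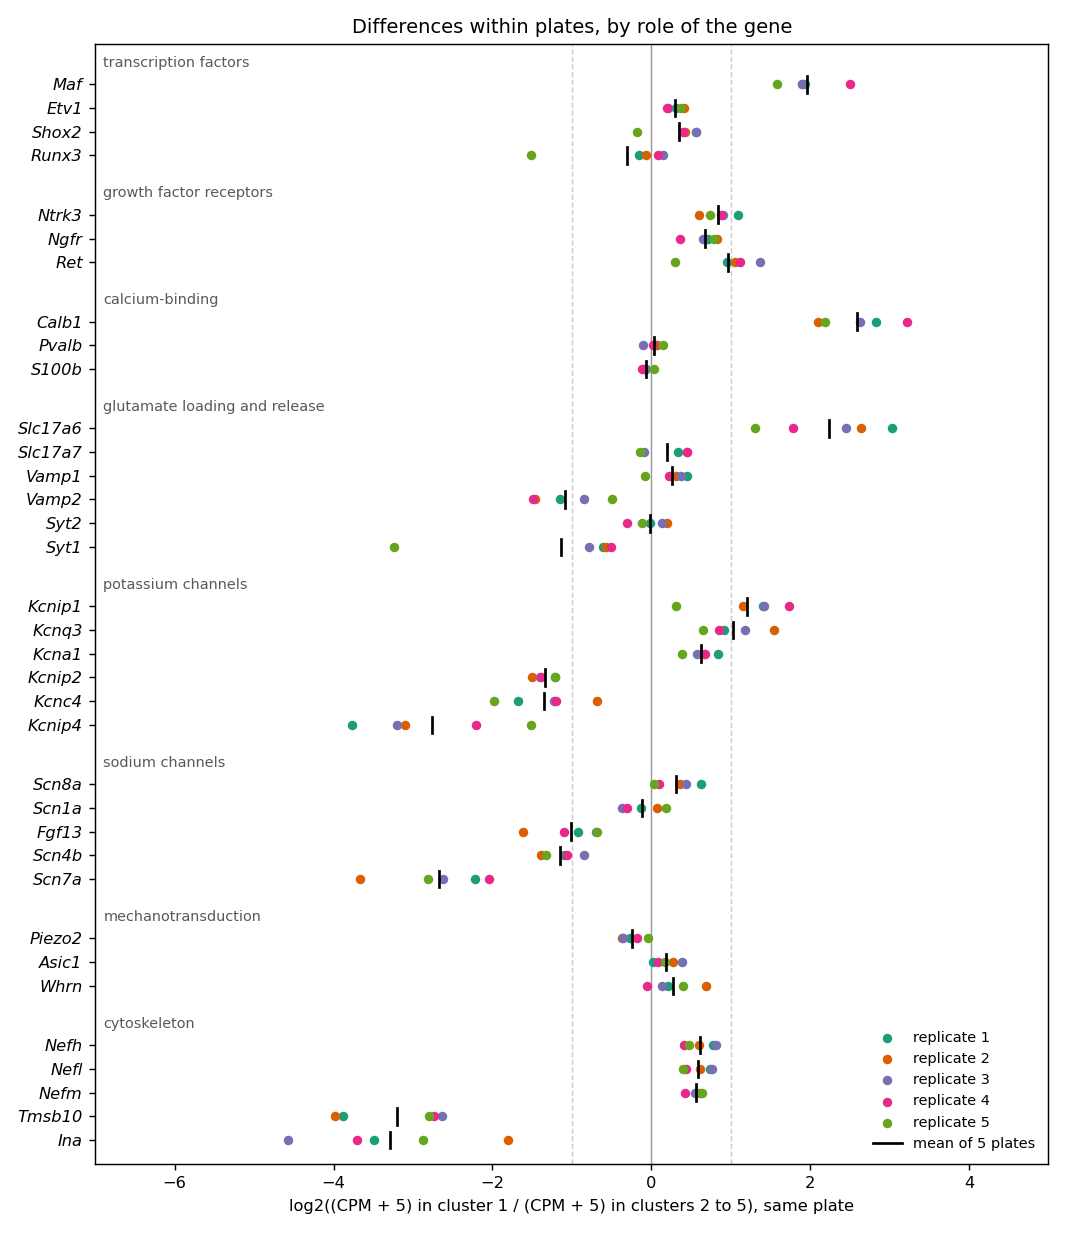
Within-plate log2 difference of cluster 1 from clusters 2 to 5 for genes grouped by role (coloured points, 1 per plate; black bars, mean of 5 plates; dashed lines at −1 and 1). Maf, Calb1 and Slc17a6 lay to the right on every plate and Kcnip4, Scn7a, Tmsb10 and Ina to the left, while Pvalb and S100b lay near 0, at 0.04 and −0.06.

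Among transcription factors and surface proteins of the proprioceptive lineage, 10 of 10 genes passed the filter, 2 were counted higher and 0 lower, beside 0.789% and 1.47% of all 5702 genes. Maf, a large leucine zipper factor, was at 386, 448, 194, 211 and 189 CPM on the 5 plates in cluster 1 and at 34.6 to 111 CPM in the other neurons. The lowest plate of cluster 1 stood above the highest plate of the others. Spp1, the secreted phosphoprotein osteopontin, was at 1688 to 3218 CPM against 528 to 1366 CPM, a mean difference of 1.20 ± 0.28. Etv1, an ETS factor needed for the development of proprioceptors, differed by 0.30 ± 0.10, Shox2 by 0.35 ± 0.31 and Runx3 by −0.30 ± 0.69, none of them counted. Pvalb, on which the genetic label rests, differed by 0.04 ± 0.09.

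Of 17 growth factor receptors 5 passed the filter, and all 5 had a mean above 0, with a median difference of 0.67, although none reached 1. Ntrk3, the neurotrophin-3 receptor TrkC, was at 725, 589, 653, 550 and 616 CPM in cluster 1 and at 284 to 389 CPM in the other neurons, so that the plates did not overlap (difference 0.84 ± 0.19). Ret, the receptor of the GDNF family, was at 54.7 ± 13.7 CPM against 24.0 CPM (difference 0.96 ± 0.40) and Ngfr, the p75 neurotrophin receptor, at 110 ± 12.1 CPM against 72.6 CPM (difference 0.67 ± 0.18). Ntrk2 was found in 20 neurons at a mean of 8.78 CPM.

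Genes of glutamate release fell into a shared majority and a few exceptions. Of 24 genes 19 passed the filter, 1 was counted higher and 2 lower, with a median difference of −0.06, beside 0.789% and 1.47% of all 5702 genes counted higher and lower. The exception upwards was Slc17a6, at 102, 106, 67.5, 60.9 and 33.5 CPM on the 5 plates. Slc17a7, which encodes the other main vesicular glutamate transporter VGLUT1, was at 224 ± 67.8 CPM and differed by 0.20 ± 0.30. The synaptic vesicle proteins Vamp2 and Syt1 were lower, by differences of −1.09 ± 0.42 and −1.14 ± 1.18, the latter with 0 UMIs in the 3 neurons of replicate 5. Their fast-synapse relatives Vamp1 (821 ± 63.9 CPM) and Syt2 (402 ± 35.6 CPM) differed by 0.26 ± 0.20 and −0.02 ± 0.20.

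Potassium channel genes were counted in both directions. Of 38 genes 21 had a UMI in the majority of the neurons and 20 passed the filter, of which 2 were counted higher and 3 lower, beside 0.789% and 1.47% of all 5702 genes. Kcnip1, a calcium sensor that modulates Kv4 channels, was at 198 to 267 CPM in cluster 1 and 64.4 to 122 CPM in the other neurons (difference 1.21 ± 0.54). Its relatives were lower, Kcnip2 at 38.0 to 45.3 CPM against 107 to 142 CPM (difference −1.34 ± 0.13) and Kcnip4 at 0 to 6.25 CPM against 21.4 to 85.0 CPM (difference −2.76 ± 0.89, with a UMI in 4 of 51 neurons). Kcnq3, a subunit of the M-current, was higher by 1.03 ± 0.35, and Kcnc4, a rapidly inactivating channel of the Kv3 family, lower by a difference of −1.35 ± 0.50. The low-threshold channels Kcna1 (288 ± 28.0 CPM) and Kcna2 (522 ± 109 CPM) and the fast channel Kcnc1 (359 ± 46.9 CPM) had means above 0, at 0.63, 0.40 and 0.37, below the size counted.

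Of 21 sodium and HCN channel genes 10 passed the filter, 0 were counted higher and 3 lower, beside 0.789% and 1.47% of all 5702 genes. The 3 were Scn7a, an atypical sodium channel, at 6.44 to 17.3 CPM against 47.0 to 127 CPM, the auxiliary subunit Scn4b at 47.7 to 67.5 CPM against 104 to 168 CPM, and Fgf13, an intracellular factor that binds sodium channels, at 48.6 to 84.8 CPM against 84.7 to 182 CPM. Only for Fgf13 did the plates of the 2 groups overlap among these 3. The pore-forming Scn8a and Scn1a, at 363 ± 67.0 and 266 ± 18.2 CPM, differed by 0.31 ± 0.24 and −0.11 ± 0.24. Scn10a was at 0 and Scn11a was found in 4 neurons.

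The mechanotransduction, calcium channel and inhibitory receptor lists had no gene counted in either direction among the 6, 4 and 7 that passed the filter. Piezo2, the stretch-gated channel of proprioceptors, was at 149 ± 22.7 CPM (difference −0.25 ± 0.14), Asic1 at 160 ± 12.2 CPM (0.19 ± 0.15) and Whrn at 118 ± 19.8 CPM (0.28 ± 0.28). Gabbr1, a subunit of the GABA-B receptor, was at 107 ± 6.25 CPM in all 51 neurons. Among 27 glutamate and other receptors 9 passed the filter and 1, the cannabinoid receptor Cnr1, was counted lower (2.82 ± 3.43 against 53.4 CPM), beside 1.47% of all 5702 genes. Gria1, Grm5 and Oprm1 were at 0.

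In the cytoskeleton the 3 neurofilament genes had differences of 0.59 ± 0.17 for Nefl, 0.56 ± 0.08 for Nefm and 0.62 ± 0.18 for Nefh, above 0 on all plates but below the size counted. Ina was at 8.44 to 31.8 CPM against 216 to 376 CPM. The tubulins and Prph had means between −0.43 and 0.02. Of 28 Hox genes, which mark body level, 22 had a UMI in a cluster 1 neuron and 3 passed the filter, Hoxa7 at 74.3 ± 27.7 CPM, Hoxc8 at 59.8 ± 10.3 CPM and Hoxa9 at 32.2 ± 6.71 CPM. Of these 3, Hoxc8 was counted higher (22.8 CPM in the other neurons, difference 1.26 ± 0.51, and 1.55 ± 0.44 from cluster 5 alone), beside 0.789% of all 5702 genes. In the cells described below that did not define cluster 1 it did not pass the test (log2 fold change 0.91 ± 0.34, edgeR adjusted p = 0.19 in the left-out wells, and 1.04 ± 0.28, 0.052 at P12). Of the 8 immediate early and heat shock genes that passed, 1, Btg2, was counted lower (difference −1.74 ± 0.60), and of 3 nerve injury genes 1, Atf3, was (−1.16 ± 0.64), beside 1.47% of all 5702 genes.

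Set against cluster 5 alone, which the study assigned to Golgi tendon organ afferents and which holds 31 neurons, several differences narrowed and others widened. Kcnip1 differed by 0.55 ± 0.61, Kcnip2 by −0.46 ± 0.46, Kcnq3 by 0.39 ± 0.34, Kcna1 by 0.18 ± 0.24 and Nefl by 0.21 ± 0.24. The marker Cpne4 was above its level in cluster 5 on 5 of 5 plates, by 0.95 ± 0.68, short of the size counted. Of the genes counted lower above, Vamp2 (−0.49 ± 0.62, above 0 on 2 plates), Atf3 (−0.54 ± 0.75, above 0 on 2), Btg2 (−0.60 ± 0.71, above 0 on 1), Kcnc4 (−0.75 ± 0.41) and Syt1 (−0.93 ± 1.17) fell short of it too. By contrast Heg1, a transmembrane protein, which differed by 0.35 ± 0.62 from all other neurons, differed by 3.57 ± 0.40 from cluster 5. The differences of Timp2, a protease inhibitor (−3.89 ± 0.23), and of Scn7a (−3.33 ± 0.69) were larger than against clusters 2 to 5 together. Agpat4 had 0 UMIs in the cluster 5 neurons of every plate. Calb2 (5.03 ± 0.81), Calb1 (2.35 ± 0.55), Slc17a6 (2.21 ± 0.78), Maf (1.62 ± 0.53) and Spp1 (1.18 ± 0.44) were higher in cluster 1 on all 5 plates in this comparison too. Nxph1 turned, from −1.98 ± 0.61 against clusters 2 to 5 to 0.53 ± 0.53 against cluster 5.

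The spread between cluster 1 neurons of a plate was measured as a biological coefficient of variation (CV), the part of the spread left after the Poisson noise of UMI counting is taken off, for 2205 genes with a mean of at least 5 UMIs per neuron. The median CV was 0.162 and the 90th percentile 0.342. For 287 genes it was 0, that is, their counts varied no more than counting alone. A CV of at least 0.5 was found in 91 genes and of at least 1 in 23. By plate the median was 0.137 to 0.156 in the 4 plates with 10 or more neurons and 0.0436 in the 3 neurons of replicate 5.

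Pvalb was among the steadiest abundant messages. Its CV was 0.0382, and its level was 1522 to 2834 CPM with a median of 2043 CPM over the 51 neurons. The heat shock cognate Hspa8 had a CV of 0.0727, and Got1, the cytosolic aspartate aminotransferase, and Mrps21, a mitochondrial ribosomal protein, had 0 at 35.1 and 34.5 UMIs per neuron. Identity genes were intermediate, with Ntrk3 at 0.250, Maf at 0.299, Slc17a6 at 0.384, Spp1 at 0.407 and Shox2 at 0.451, and the neurofilaments at 0.212 to 0.229. The CV of Shox2 was 0.511 within replicates 1 and 2 and 0 within replicates 3 to 5. That of Slc17a6 was 0.228 and 0.546.

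Of the 8 cluster 1 markers 4 had enough UMIs for a CV, and among these Calb2 had the highest, 1.53, against 0.736 for Calb1 and 0.384 for Slc17a6. Over the 51 neurons its level was 0 CPM at the lowest, 27.2 CPM at the median and 1377 CPM at the highest, and the highest neuron held 95 UMIs. The CV was 1.25 within replicates 1 and 2 and 1.67 within replicates 3 to 5. In some genes of high CV a single neuron held many of the UMIs. One neuron held 49.8% of all cluster 1 UMIs of Lockd, a non-coding RNA (CV 2.99), one held 28.9% of those of the chromatin gene Pcgf2 (1.79) and one 28.0% of those of Abhd2 (1.35). In Cflar, an inhibitor of caspase activation (1.57), and in Calb2 the highest neuron held 14.6% and 14.3%. Apoe, the leading satellite glia gene, had a CV of 1.25 and a range of 41.8 to 1967 CPM.

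**Figure D3:**
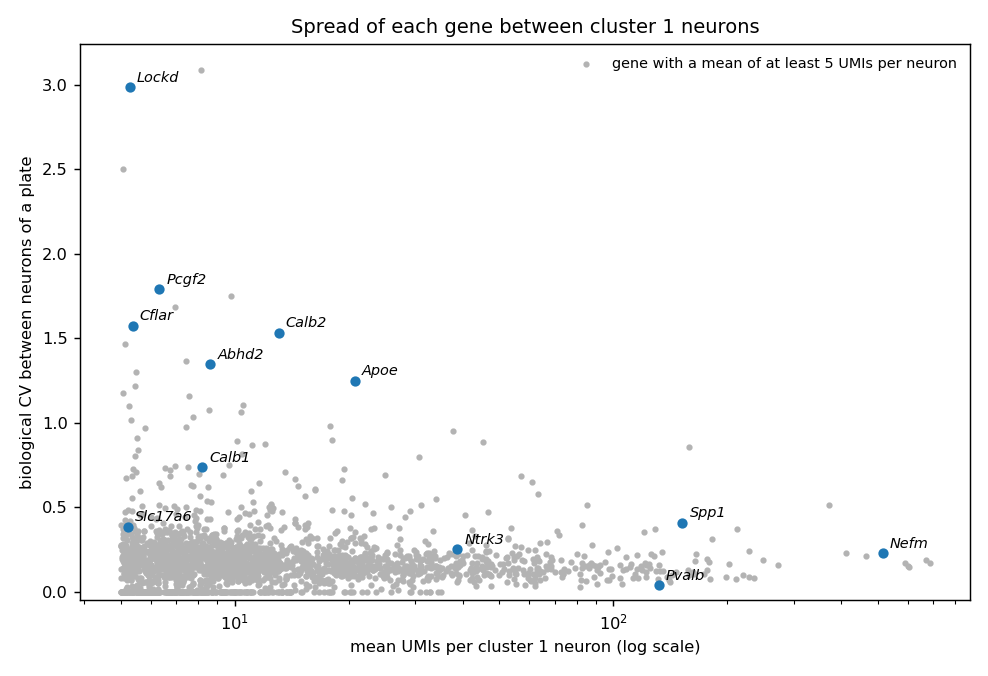
Biological CV between cluster 1 neurons of a plate against mean UMIs per neuron (log axis) for 2205 genes, each a point, with 12 genes named in blue. Calb2 and Apoe stand at 1.53 and 1.25, far above the median of 0.162, and Pvalb lies near 0.

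The spread of Calb2 raises the question of which other genes differ between cluster 1 neurons rich and poor in it. On each plate the neurons above and those below the middle of the order by Calb2 CPM were summed (24 against 24 neurons, 1 against 1 on replicate 5) and compared with edgeR's quasi-likelihood test with plate as a block. A Calb2 UMI was held by 23 neurons of the high group and by 6 of the low group, since the split follows each plate's own order; on replicate 4, where 4 of 10 neurons held one, 1 neuron without a UMI stood in the high group. Of 6134 genes other than Calb2, 16 (0.261%) were higher and 6 (0.0978%) lower at a Benjamini-Hochberg adjusted p under 0.05, and 366 had an unadjusted p under 0.05. Calb2-high neurons were deeper on 4 of 5 plates, their pan-neuronal genes summed to more CPM on 5 of 5, and their glial list summed to 149 to 989 CPM against 104 to 660 CPM, higher on 3 of 5. The part of the pan-neuronal and glial sums in the result was not tested. Of the 19 neurons without a Calb2 UMI the median depth was 54588 UMIs, against 62130 UMIs in the 32 with one. After each neuron was thinned to 7000 UMIs, with 1107 genes left to test, edgeR called 0 genes and 55 had an unadjusted p under 0.05, and DESeq2 at full depth called 3, Vstm2b, Nefm and Nefl. When neurons of a plate were paired by depth and the one with more Calb2 was set against the one with less, an alternative chosen after seeing the data, 29 genes were called, 8 of them among the 22.

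The called gene with the largest fold change in this split was Vstm2b, which encodes a transmembrane immunoglobulin-domain protein. It was at 184, 91.4, 28.2, 84.2 and 131 CPM in Calb2-high neurons and at 0, 19.9, 0, 2.88 and 0 CPM in Calb2-low neurons of replicates 1 to 5. It was higher on all 5 plates and the groups did not overlap. The log2 fold change was 4.30 ± 0.48 (SE, edgeR adjusted p = 1.5e-05), and it was called under each of the 11 other settings that tested it, with adjusted p up to 0.0018. With neurons paired by depth its log2 fold change was 2.14, below those of Ifitm2, an interferon-induced membrane protein (2.84, adjusted p = 0.030), and Dqx1 (2.16, 0.017). A Vstm2b UMI was found in 21 of the 32 neurons with Calb2 and in 3 of the 19 without. The study lists Vstm2b as a transcript tied to ventral muscle targets, and found such transcripts spread over its 5 main clusters. Muscle target was not tested here.

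A pair of neurofilament genes rose with Calb2 by a small amount. Nefm was at 9797, 12354, 7832, 8621 and 8404 CPM in Calb2-high and at 7506, 8008, 6259, 6053 and 5474 CPM in Calb2-low neurons, higher on 5 of 5 plates (log2 fold change 0.47 ± 0.08, adjusted p = 0.0055). Nefl followed with 0.39 ± 0.08 (adjusted p = 0.028), and Nefh, at 0.27 ± 0.08, did not pass (adjusted p = 0.28) although it was higher on all 5 plates. The call of Nefm held without each plate in turn and with neurons paired by depth (adjusted p = 0.033) but not after thinning (log2 fold change 0.41, adjusted p = 0.20). That of Nefl was lost without replicate 1, 2, 3 or 4 (adjusted p = 0.058 to 0.20) and with neurons paired by depth (log2 fold change 0.37, adjusted p = 0.054), and its log2 fold change after thinning was 0.41. Across the 51 neurons, centred by plate, log2(CPM + 5) of Calb2 correlated with that of Nefm at r = 0.71, of Vstm2b at 0.68 and of Nefl at 0.65, the 3 highest of 6592 genes. These are descriptions, and the neurons share plates and depth; the correlation of log depth with Calb2 was 0.40 and with Nefm 0.25.

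Further genes higher in Calb2-high neurons were Slc13a4, a sulphate transporter, at 3.09 ± 0.52 (adjusted p = 0.0055), Stxbp2, a syntaxin-binding protein of exocytosis, at 2.85 ± 0.44 (0.0023), Calb1 at 1.15 ± 0.24 (0.022, though at 0 in the 1 Calb2-high neuron of replicate 5) and Gas6, a ligand of TAM receptor kinases, at 0.50 ± 0.11 (0.045). Lower were Stxbp6, a SNARE-binding protein, at −2.54 ± 0.52 (0.022), Spry2, a brake on receptor kinase signalling, at −1.31 ± 0.22 (0.0055), and Prss12, the neuronal protease neurotrypsin, at −1.06 ± 0.24 (0.048). Stxbp6 was at 0 to 13.2 CPM in Calb2-high and 23.1 to 63.1 CPM in Calb2-low neurons, without overlap. Most of these calls were lost when certain single plates were left out. Stxbp2 was lost without replicate 3 (adjusted p = 0.19), Spry2 without replicate 2 (0.43), Calb1 without replicate 1, 2 or 4 (0.43, 0.051 and 0.14), Stxbp6 without replicate 1, 2, 3 or 5 (0.060 to 0.24), and Gas6 and Prss12 without any 1 plate (0.078 to 0.29 and 0.078 to 0.32). With neurons paired by depth the calls of Slc13a4 (log2 fold change 1.05, adjusted p = 1.00), Gas6 (0.05, 1.00), Calb1 (0.94, 0.060), Stxbp6 (−1.78, 0.18), Spry2 (−0.75, 0.14) and Prss12 (−0.79, 0.38) were lost, and DESeq2 called none of the 7 genes of this paragraph (adjusted p = 0.16 to 0.56). The count of 22 calls went to 11 without replicate 1 or 3, to 14 without replicate 2 and to 13 without replicate 5.

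The other markers did not follow Calb2 to a degree this test could call. Agpat4 had a log2 fold change of 0.64 ± 0.33 (adjusted p = 0.85), Slc17a6 of 0.26 ± 0.22 (0.96) and Cpne4 of −0.25 ± 0.25 (0.98). Pvalb, at −0.03 ± 0.08, and Ntrk3, at 0.09 ± 0.10, had narrow errors around 0. None of the 7 Hox genes tested was called, with Hoxc10 at 0.63 ± 0.51 and Hoxc8 at −0.31 ± 0.31. Of 44 genes counted higher in cluster 1, 2 were called higher here, Calb1 and Gas6, and 1 lower, Pcgf2, beside 0.261% of all genes called higher and 0.0978% lower. The call of Pcgf2 was lost without replicate 1 (adjusted p = 0.92) or 2 (0.14) and by DESeq2 (1.00), and the losses of Calb1 and Gas6 are given above.

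**Figure D4:**
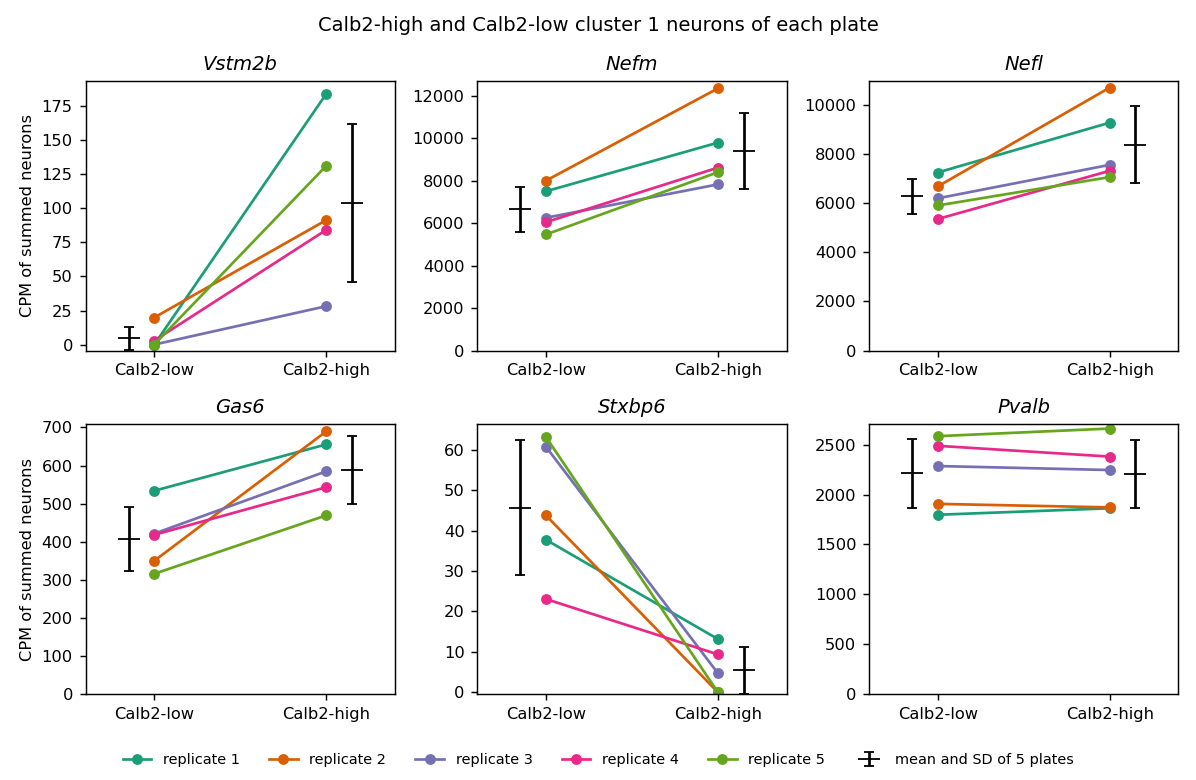
CPM of 6 genes in the summed Calb2-low and Calb2-high cluster 1 neurons of each plate (coloured lines, 1 per plate; black bars, mean and SD of 5 plates; replicate 5 holds 1 neuron a group). Vstm2b, Nefm, Nefl and Gas6 rise and Stxbp6 falls on all 5 plates, and Pvalb lies between 1798 and 2664 CPM in both groups.

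Wells that the study left out of its clustering gave a first set of cells that did not define cluster 1. In all, 242 adult wells with at least 2000 genes were left out (40 to 69 per plate), and on each plate the 30% with most UMIs of the 4 markers per UMI of the pan-neuronal genes (72 wells) were summed and compared with the rest (170 wells). A Calb2 UMI was held by 28 of the 72 marker-high wells and by 10 of the 170 others. A UMI of at least 1 marker was held by all 72 and by 48 of the others. The left-out wells carried more glial RNA than the kept neurons, with 6364 to 10826 CPM of the glial list in the marker-high wells and 8325 to 13332 CPM in the others, lower in the marker-high wells on all 5 plates. The pan-neuronal genes summed to more CPM in the marker-high wells on all 5 plates, and these wells were deeper on 2 of 5. The part of these in the result was not tested. Of 8762 genes besides the markers, edgeR with plate as a block called 160 (1.83%) higher and 79 (0.902%) lower.

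The genes that set cluster 1 apart in the kept neurons were frequent among these. Of the 42 genes counted higher there, markers aside, 29 were called higher, 0 lower, and 40 had a positive log2 fold change, with a median of 1.07 against 0.00 over all genes. Of the 84 counted lower, 25 were called lower and 0 higher, with a median of −0.51. Calb1 was at 50.7, 27.8, 72.0, 39.1 and 68.3 CPM in marker-high wells and at 6.14 to 13.7 CPM in the others (log2 fold change 2.47 ± 0.24, adjusted p = 1.1e-05). Rgs6, which shortens G protein signals, was higher by 2.31 ± 0.26 (4.4e-05), Cryba2 by 2.45 ± 0.30 (0.00012), Ret by 1.86 ± 0.21 (4.4e-05), Maf by 1.12 ± 0.17 (0.00093) and Spp1 by 1.05 ± 0.18 (0.0035). Each of these 6 was higher on 5 of 5 plates and was called without each plate in turn. With wells ranked by Calb2 alone the calls of Cryba2 (1.17, adjusted p = 0.15) and Ret (0.58, 0.29) were lost, and DESeq2 did not call Spp1 (0.085).

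By role, Ntrk3 rose by 0.61 ± 0.12 (adjusted p = 0.011) and Ngfr by 1.18 ± 0.20 (0.0023), so that with Ret 3 of 9 growth factor receptors tested rose and 0 fell, where 1.83% of all genes were called higher and 0.902% lower. Of 26 potassium channel genes tested 4 rose, among them Kcnip1 (1.29 ± 0.26, 0.0097) and Kcna1 (0.73 ± 0.17, 0.029), and 1 fell, Kcnip2 (−0.71 ± 0.15, 0.015). Scn4b (−0.64 ± 0.14, 0.019) and Fgf11, another channel-binding factor (−1.27 ± 0.26, 0.012), fell. Of 16 sodium and HCN channel genes tested 1 was called higher and 2 lower. The calls of Kcnip1, Kcna1, Kcnip2 and Scn4b were lost without replicate 3 (adjusted p = 0.060 to 0.16) and without replicate 4 (0.057 to 0.20), that of Fgf11 without replicate 3 alone (0.064), and that of Ntrk3 without either (0.077 and 0.072). Ranking by Calb2 alone lost the calls of Ntrk3 (adjusted p = 0.76), Ngfr (0.81), Fgf11 (0.79) and Scn4b (0.13), and DESeq2 lost those of Kcnip1, Kcna1, Kcnip2 and Scn4b (0.069 to 0.13). Nefl, Nefm and Nefh rose by 0.77 ± 0.09, 0.64 ± 0.09 and 0.62 ± 0.10; their UMIs stood in the denominator by which wells were ranked. The number of calls went from 239 to 153 without replicate 1, 104 without replicate 3 and 103 without replicate 4.

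The largest fold changes in these wells were of another kind. Calca, the peptide CGRP of nociceptors, was at 0, 0, 1.36, 1.63 and 795 CPM in marker-high wells and at 0 to 19.6 CPM in the others (log2 fold change 5.07 ± 0.37). The value comes from replicate 5, where 14 left-out wells, 8 of them marker-high, exceeded the highest kept adult neuron (57.7 CPM). Calcb and Fxyd2 followed at 4.42 ± 0.32 and 4.46 ± 0.40, Calcb higher on 4 and Calca and Fxyd2 on 3 of 5 plates, and Fxyd2 was at 0 in the marker-high wells of replicates 3 and 4. DESeq2 called neither Calca (adjusted p = 0.95) nor Fxyd2 (0.90). With wells ranked by Calb2 alone Calca and Calcb were called lower (log2 fold changes −1.53 and −1.41, adjusted p = 0.028 and 0.026), so no direction is given for these 2 genes. When those 14 wells were removed, an alternative chosen after seeing the data, 200 genes were called higher and 148 lower, 207 of them among the 239 above.

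Neurons of P12 mice gave a second set. The 154 kept P12 neurons of 4 plates were split in the same way (47 marker-high against 107 others), and of 6639 genes 82 (1.24%) were called higher and 68 (1.02%) lower. A Calb2 UMI was held by 18 of the 47 marker-high neurons and by 10 of the 107 others. A UMI of at least 1 marker was held by all 47 and by 38 of the others. Marker-high neurons were deeper, and their pan-neuronal genes summed to more CPM, on all 4 plates; the part of these in the result was not tested. Of 36 tested genes counted higher in adult cluster 1, 20 were called higher and 0 lower, with a median log2 fold change of 1.23, and of 79 counted lower 28 were called lower and 0 higher, with a median of −0.74.

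The clearest P12 difference was Spp1, at 1392, 1507, 1686 and 908 CPM in marker-high neurons and 282, 474, 383 and 471 CPM in the others, without overlap (log2 fold change 1.76 ± 0.13, adjusted p = 1.9e-08). Cryba2 rose by 3.13 ± 0.24 (1.9e-08), Lcp2, an adaptor of receptor signalling, by 2.22 ± 0.34 (0.00043) and Gas6 by 1.23 ± 0.13 (3.45e-06), and each was called without each plate in turn. Heparanase Hpse rose by 2.88 ± 0.56 (0.0046), Ret by 2.14 ± 0.42 (0.0053), Kcnip1 by 1.98 ± 0.32 (0.00071), Maf by 1.41 ± 0.21 (0.00033), Heg1 by 1.32 ± 0.23 (0.0015), Kcna1 by 0.78 ± 0.13 (0.00092) and Ntrk3 by 0.65 ± 0.11 (0.0016), higher on all 4 plates except for Ret, which was higher on 3. Those 7 calls were lost without replicate 3 (adjusted p = 0.054 to 0.19), one of the 2 plates with most neurons, and the total without it was 21 calls in place of 150. DESeq2 did not call Kcnip1 (0.60) or Ret (0.084) either. Nefl, Nefm and Nefh rose by 0.44 ± 0.06, 0.39 ± 0.05 and 0.62 ± 0.09, again with their UMIs in the denominator of the ranking. By role, 4 of 23 potassium channel genes tested rose and 2 fell, 4 of 10 proprioceptor identity genes rose and 0 fell, and of 18 genes of glutamate release 0 passed in either direction, beside 1.24% of all genes called higher and 1.02% lower. Of 14 sodium and HCN channel genes tested at P12 1 rose and 1 fell. Calb1 rose by 1.70 ± 0.44 (0.041), which was lost without replicate 2 (0.62) or 3 (0.13), by DESeq2 (0.45) and with the ranking by Calb2 alone (0.28).

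Lower at P12 were Cartpt, a neuropeptide precursor, at 0, 0, 0 and 18.1 CPM against 2.19 to 279 CPM (log2 fold change −4.48 ± 0.55, adjusted p = 3.2e-05), the LIM protein gene Crip2 (−2.51 ± 0.28, 1.1e-05), Cnr1 (−1.97 ± 0.42, 0.010) and Kcnip4 (−1.42 ± 0.30, 0.0094). Cartpt and Crip2 were called without each plate in turn, but Cartpt was not called by DESeq2 (adjusted p = 1.00) and turned with the ranking by Calb2 alone (0.46, adjusted p = 0.35), under which Crip2 was not called either (−1.25, 0.059). Cnr1 was lost without replicate 2 (0.060) and Kcnip4 without replicate 3 (0.44) and by DESeq2 (0.40). Of the genes called in the adult wells and at P12, 62 were shared, 25.9% of the adult and 41.3% of the P12 calls, 38 higher in both, 23 lower in both and 1, Gys1, in opposite directions. Vstm2b, the called gene of largest fold change in the Calb2 split of cluster 1, was not called with the ranking by 4 markers (0.24 ± 0.27, adjusted p = 0.81 at P12, and −0.04 ± 0.32, adjusted p = 0.98 in the adult wells). With the ranking by Calb2 alone it was called higher at P12 (0.97, adjusted p = 0.0037) and not in the adult wells (0.27, adjusted p = 0.79).

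**Figure D5:**
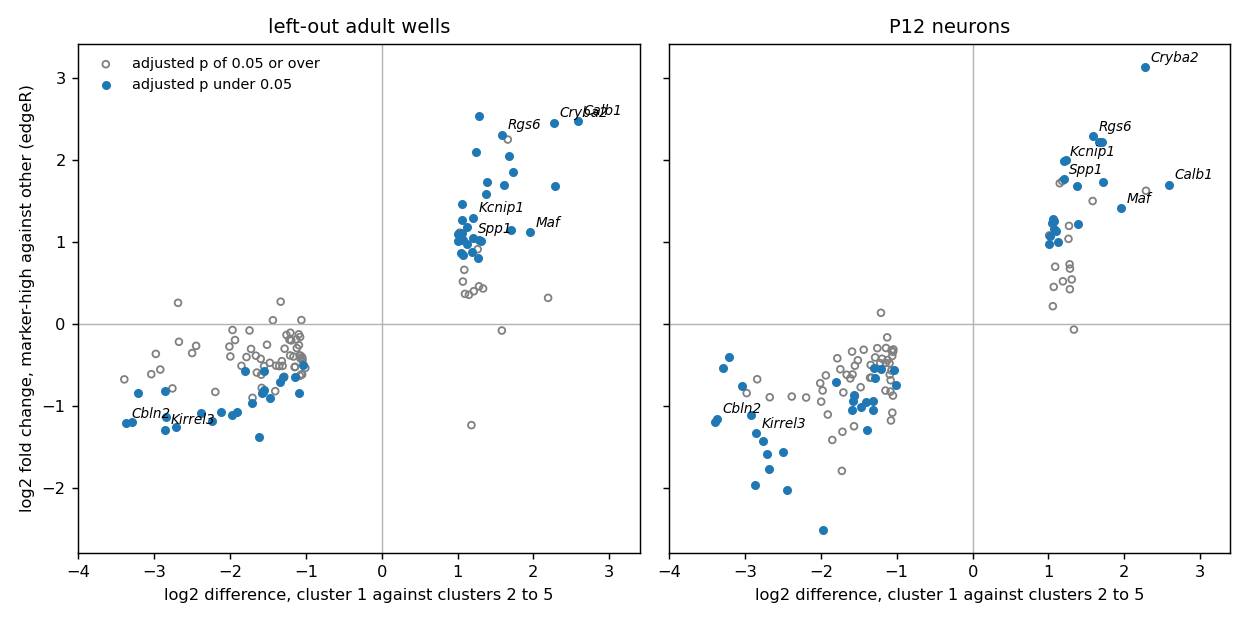
For genes counted higher or lower in cluster 1 (horizontal axis, mean within-plate log2 difference from clusters 2 to 5 in the kept neurons), the edgeR log2 fold change between marker-high and other cells (vertical axis) in left-out adult wells (left) and P12 neurons (right). Filled points passed an adjusted p of 0.05; 40 of 42 genes on the right side lie above 0 in the left-out wells.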

How the data were processed

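The authors sorted single tdTomato+ neurons into plates, made 3′ libraries with a well barcode and a molecular identifier, aligned reads with STAR to mouse mm10 (GRCm38, NCBI annotation; the STAR version is not given in the sources used here), and deposited UMI counts per gene and well with an annotation of kept wells and clusters. Wells with few genes or high glial transcripts had been left out by the authors. Groups came from the stage labels and clusters from the annotation. The members and lists were chosen with earlier results of these data known.

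Deposited UMI counts were converted to CPM. Levels are means of single-neuron CPM per plate, and differences use summed UMIs per plate and a pseudocount of 5 CPM, for genes with a mean of at least 1 UMI per neuron. The biological CV needed a mean of at least 5. Summed counts were tested with edgeR 4.0.16 (quasi-likelihood, plate as block, filterByExpr, TMM) in R 4.3.3, with Benjamini-Hochberg adjustment over all genes tested, and DESeq2 1.42.0 as an alternative. The block rests on the plate, on which both classes were made together. Python 3.11.15 was used otherwise. Each script was tested on simulated data. Promoter windows came from RefSeq. Errors are SD over plates, or SE of a fit (fold change over the square root of F).

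Named genes were those of the fixed lists, the 10 of highest level, the 10 largest differences or fold changes in each direction, and the 10 largest and 5 smallest CVs, predicted genes skipped. Alternatives were other pseudocounts, filters, depths, rankings, comparison groups, size factors and tools, the fit without the block, and leaving out each plate. Each adult plate held 2717982 to 4202745 UMIs. The E14.5 and P0 plates were not analysed here. Some genes are not reported here.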

Additional observations from a re-analysis of the deposited data

Results flagged for a closer look

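Among 93 values looked at by plate, 3 had 1 plate far from the other 4, by a test that flags about 1 in 20 groups by chance, and all 3 were mean levels in replicate 5, which holds 3 cluster 1 neurons. Calb2 stood at 437 CPM there against 141 to 171 CPM on the other plates. Calb1 stood at 71.6 CPM against 113 to 126 CPM. Kcnip4 stood at 6.25 CPM against 0 to 1.30 CPM. The reason was not tested.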

How the results depend on the processing

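Against the 45 higher and 84 lower genes of cluster 1, a pseudocount of 20 CPM gave 21 and 45, no filter on low counts 81 and 200, thinning each neuron to 7000 UMIs 82 and 158 (22 of them among the 45 and 53 among the 84), and cluster 5 alone as the comparison 70 higher genes (23 of them among the 45). Leaving out a plate gave 41 to 53 and 85 to 101. The median CV stayed at 0.1495 to 0.166 over its alternatives and at 0.157 to 0.166 without a plate. Genes with a UMI in every neuron numbered 237 after thinning, 1009 at a minimum of 2 UMIs and 1678 to 1993 without a plate.

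For the left-out adult wells (239 calls), DESeq2 gave 81, no filter 523, the ranking by marker CPM 380, the ranking by Calb2 alone 97 and leaving out a plate 103 to 298. For P12 (150 calls), DESeq2 gave 39, no filter 248, Calb2 alone 282 and leaving out a plate 21 to 223. For Calb2-high against Calb2-low (22 calls), DESeq2 gave 3, no filter 99, the top against the bottom tercile 8, neurons with against without a Calb2 UMI (an alternative added after seeing the data) 8, and leaving out a plate 11 to 15. Thinned to 7000 UMIs, where 1107 genes could be tested, edgeR called 0, with 55 at an unadjusted p under 0.05. Without the replicate block edgeR called 13 genes in the left-out wells, 0 at P12 (244 at an unadjusted p under 0.05) and 0 between Calb2 groups (122). The cause was not tested, except that fewer UMIs or samples entered the thinned and leave-one-out fits.

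Ranking by Calb2 alone turned the log2 fold changes of Calca (−1.53), Calcb (−1.41), Basp1 (−0.53), Sorl1 (−1.12) and Dapl1 (−0.37) in the left-out wells and of Cartpt (0.46) at P12. Neurons with against without a Calb2 UMI turned Dqx1 (−0.43) and Pcgf2 (0.41). Against cluster 5 alone Nxph1 turned (0.53). Depth limits the low genes most, and replicate 5 rests on 3 neurons.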

Other observations

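Genes of sterol synthesis and its regulation were looked at after several of them appeared among the lower genes, so the list of 23 was chosen after its values were seen and has no test of its own. Of the 17 that passed the filter, all 17 had a mean difference below 0, 9 were counted lower and 0 higher, and the median was −1.05, against 0.01 over all 5702 genes and 1.47% counted lower. Fdft1, which encodes squalene synthase, was at 45.8 ± 12.5 CPM in cluster 1 and 173 CPM in the other neurons (difference −1.80 ± 0.37), Msmo1, a sterol oxidase, at 25.2 ± 13.0 against 76.5 CPM (−1.51 ± 0.41), and Hmgcs1, an early enzyme of the pathway, at 185 ± 144 against 536 CPM (−1.20 ± 0.51). The regulators Insig1 and Srebf2 differed by −1.33 ± 1.22 and −1.06 ± 0.41.

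In the left-out wells, where edgeR called 0.902% of all genes lower, 1 of 22 tested was called lower, Fdft1 (log2 fold change −0.58 ± 0.14, edgeR adjusted p = 0.032, lower on 5 of 5 plates, lost without replicate 1, 3 or 4, by DESeq2 with 0.083 and with the ranking by Calb2 alone with 0.13), and 18 of the 22 were below 0. The median of the 22 was −0.33, against 0.00 over all genes tested. The glial list summed to less in the marker-high wells on all 5 plates, and its part in these values was not tested. At P12, where 1.02% of all genes were called lower, 2 of 20 were called lower, Fdft1 (−0.71 ± 0.15, adjusted p = 0.0094) and Hmgcs1 (−0.55 ± 0.12, adjusted p = 0.014), both lower on 4 of 4 plates. Fdft1 was lost there without replicate 3 (adjusted p = 0.25), by DESeq2 (0.23) and with the ranking by Calb2 alone (0.14), and Hmgcs1 without replicate 1, 2 or 3 (0.073, 0.060 and 0.17) and by DESeq2 (0.29).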
